A study of Caenorhabditis elegans with 6 samples.

Results

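This account covers 10 transcription factor genes of Caenorhabditis elegans that act in immune and stress responses: zip-1, zip-2, zip-10, cebp-1, cebp-2, atf-7, skn-1, sta-1, sta-2 and elt-2. They were chosen by gene symbol and matched to the 22010 genes in the tables by their sequence names, and all 10 were found. RNA from whole animals at the last larval stage (L4) was sequenced in 3 libraries of pals-25(icb98) and 3 libraries of WT. The pals-25(icb98) animals carry an allele, recovered in a mutagenesis screen, in which a premature stop codon removes the end of the PALS-25 protein. The WT animals are of the N2 background. Both strains hold icbIs4, an integrated transgene with GFP under the chil-27 promoter and mCherry under the col-12 promoter, so the WT animals also carry a transgene. All animals were synchronised by bleaching, grown at 20 °C on E. coli OP50 and not infected. The comparison asks how the mutant allele changes gene expression without a pathogen.

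PALS-22 and PALS-25 are an antagonistic pair in which PALS-22 represses and PALS-25 activates the intracellular pathogen response (IPR), a set of genes that microsporidia and the Orsay virus induce. ZIP-1, a basic leucine zipper (bZIP) protein, is needed for the induction of some of these genes. The other factors serve other defences: ZIP-2 and CEBP-2 answer bacterial toxins that block translation, ATF-7 and SKN-1 lie below the p38 kinase PMK-1, STA-1 acts in the antiviral response, STA-2 controls antimicrobial peptides of the epidermis, and ELT-2 is the main GATA factor of the intestine.

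The libraries held between 40709626 and 47297002 estimated counts. Within pals-25(icb98), 230 to 280 genes lay over 2-fold apart in a pair of libraries, as did 280 genes between WT replicates 1 and 3, whereas WT replicate 2 lay 2960 and 2658 genes from the other WT libraries. No pair was within sampling noise, and all 6 libraries were kept. The transcript of the mutated gene, pals-25, was measured at 4.08, 4.23 and 3.78 CPM (counts divided by the scaled library total) in pals-25(icb98) libraries 1 to 3 and at 1.88, 2.47 and 1.77 CPM in WT libraries 1 to 3. The genotype cannot be read from these levels, since a stop codon near the end of a gene need not lower its transcript. Of 16166 genes tested with edgeR, 1584 rose and 1729 fell in the mutant at an adjusted p under 0.05, which is 20.5% of those tested. Leaving out single libraries changed these counts, to 682 higher and 330 lower without pals-25(icb98) replicate 1, 823 and 631 without replicate 2 and 724 and 381 without replicate 3, and to 1157 and 1057 without WT replicate 1, 3165 and 2972 without WT replicate 2 and 912 and 576 without WT replicate 3. Each of these moved by more than 1.5 times except the 1157 higher genes without WT replicate 1.

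Several marker sums of tissue and stage did not overlap between the groups. The summed level of 7 genes of the L4 molting cycle was 1490 to 1774 CPM in pals-25(icb98) and 2363 to 4070 CPM in WT, with 3 genes lower and 1, the adult collagen gene col-19, higher. The sum of 6 epidermal markers was 350 to 459 CPM in pals-25(icb98) and 663 to 856 CPM in WT, with 3 genes lower. Most of this sum was rol-6 and dpy-7. In WT libraries 1 to 3, rol-6 was at 442, 382 and 454 CPM and dpy-7 at 78.4, 303 and 114 CPM. One epidermal marker, nhr-23, is also among the genes of the molting cycle. The sum of 7 intestinal markers was 7543 to 8451 CPM in pals-25(icb98) and 5957 to 6920 CPM in WT. Most of this sum was asp-1, at 5514, 4775 and 4883 CPM in pals-25(icb98) and 3684, 4032 and 3975 CPM in WT. Of the 7 genes 2, asp-1 and ifb-2, were higher and 5 were not called, among them pept-1 with a log2 difference of -0.09. The sum of 5 oocyte markers was 357 to 423 CPM in pals-25(icb98) and 111 to 256 CPM in WT, with 1 gene higher, and 5 higher at an unadjusted p under 0.05 in edgeR. The sum of 3 body wall muscle markers was 12160 to 12918 CPM in pals-25(icb98) and 11432 to 11567 CPM in WT, with 1 gene, unc-54, higher. Most of this sum was unc-54, and myo-3 and unc-15 were not called, each with a log2 difference of -0.04. The sum of 5 sperm markers was 180 to 196 CPM in pals-25(icb98) and 73.5 to 169 CPM in WT, with 0 called in edgeR and 0 at an unadjusted p under 0.05. Other sums overlapped between the groups. They were 329 to 356 CPM in pals-25(icb98) and 304 to 365 CPM in WT for neurons, and 827 to 915 and 789 to 1176 CPM for the pharynx. For the germline they were 1858 to 1996 CPM in pals-25(icb98) and 1528 to 2003 CPM in WT, with 1 gene lower. No marker of these lists was at 0 in all libraries, and the part of the marker shifts in the results below was not tested.

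Of the 10 transcription factor genes, all of which passed the filter on low counts, 4 were higher in pals-25(icb98), 0 were lower and 6 were not called (edgeR quasi-likelihood test, adjusted p under 0.05). The share called was 40% of the members, beside 20.5% of all tested genes, with 9.80% higher and 10.7% lower. No member was lower at an unadjusted p under 0.05 in edgeR, nor at an adjusted p under 0.05 in DESeq2 or limma-voom. The members that rose were zip-1, cebp-1, zip-2 and atf-7. The CPM ranges of the groups did not overlap for 6 of 10 members, beside 49.3% of all tested genes. The median log2 fold change was 0.17 over the members and 0.01 over all tested genes. In whole animals, a change in the number of cells of a type and a change in RNA per cell cannot be told apart.

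**Figure D1:**
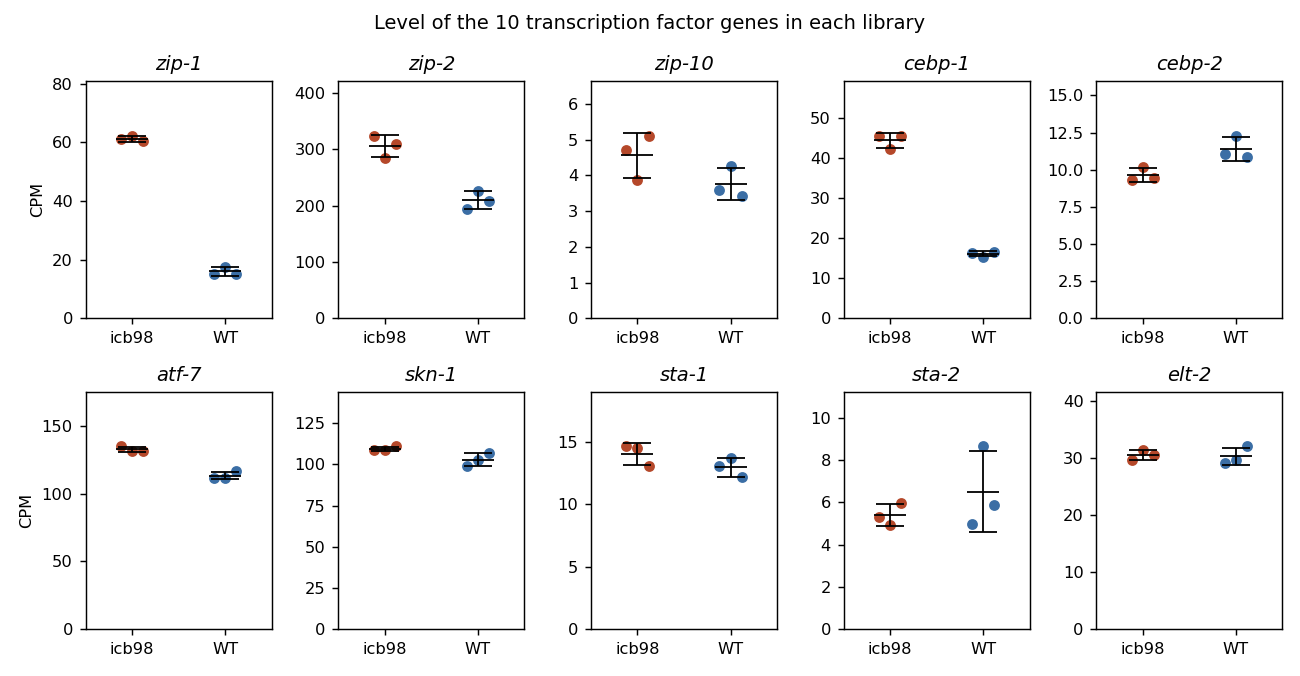
Level in CPM of each of the 10 genes in the 3 pals-25(icb98) libraries (left, red) and the 3 WT libraries (right, blue), with each axis starting at 0 and lines for the mean ± SD. The groups lie far apart for zip-1 (60.3 to 62.2 CPM in pals-25(icb98), 15.1 to 17.6 CPM in WT) and for cebp-1 (42.2 to 45.5 CPM in pals-25(icb98), 15.3 to 16.6 CPM in WT), and in sta-2 the highest point is WT replicate 2.

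zip-1 (Y75B8A.35) lies on chromosome III from 12333745 to 12345384 on the plus strand of WBcel235. It was measured at 61.0, 62.2 and 60.3 CPM in pals-25(icb98) libraries 1 to 3, against 15.1, 17.6 and 15.2 CPM in WT libraries 1 to 3. Every mutant library was far above every WT library. The mean was 61.1 ± 0.992 CPM in pals-25(icb98) and 15.95 ± 1.40 CPM in WT (SD, n = 3 each), a 3.83-fold rise or 1.94 on the log2 scale (SE 0.08, 95% interval 1.75 to 2.12, edgeR adjusted p = 5.96e-05). By p-value zip-1 ranked 47 among all tested genes, and the size of its change was above that of 96.5% of them. The call held under every alternative of tool, scaling, filter and left-out library, with log2 fold changes from 1.90 to 2.01.

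zip-1 was not itself in the study's list of 80 IPR genes. In that list 64 of 77 tested genes were higher and 0 lower, at a median log2 fold change of 4.67, with 0 lower also at an unadjusted p under 0.05, in DESeq2 and in limma-voom. Of those 64 genes, 53 rose by more than zip-1 and 11 by less. With a log2 fold change over 2 as the limit, 423 called genes were above it and 0 of the 10 members, zip-1 lying just under it.

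Of 4 genes that switch the IPR on or off, 3 were higher and 0 lower. Neither an unadjusted p under 0.05 in edgeR nor DESeq2 or limma-voom gave any lower gene (0 in each). drh-1, which encodes an RNA helicase that senses viral RNA, rose to 70.6, 67.9 and 67.2 CPM in pals-25(icb98), against 43.8, 42.4 and 44.2 CPM in WT, by 0.66 on the log2 scale (SE 0.05, edgeR adjusted p = 5.48e-04). The groups of drh-1 did not overlap. pals-22, the repressor that shares an operon with pals-25, rose by 0.98 (edgeR adjusted p = 0.0121), as did pals-25 by 0.98 (edgeR adjusted p = 0.0145). Both calls were lost without any 1 of the pals-25(icb98) libraries, at edgeR adjusted p of 0.0576, 0.0504 and 0.0598 for pals-22 and 0.0719, 0.0601 and 0.0560 for pals-25 without replicates 1, 2 and 3. The pals-25 call was lost without WT replicate 3 too (0.0545). pnp-1, a purine nucleoside phosphorylase gene that represses the IPR, was not called (log2 difference 0.73, edgeR adjusted p = 0.0575).

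The levels of 5 genes followed the 6 libraries most like zip-1 did, by the Euclidean distance between log2 CPM profiles centred on the gene mean, among the 14010 genes whose mean reached 1 CPM. They were K08D10.14 on chromosome IV (distance 0.18), F19C7.2 on IV (0.19), rcs-1 on X (0.20), F59E11.7 on V (0.25) and sid-5 on X (0.27). rcs-1, which encodes the RING subunit of the ubiquitin ligase of the IPR, was at 121, 124 and 116 CPM in pals-25(icb98) and at 34.3, 38.3 and 31.1 CPM in WT. sid-5 encodes a membrane protein needed for the spread of RNA silencing between cells, and averaged 17.3 ± 1.38 CPM in pals-25(icb98) and 3.92 ± 0.292 CPM in WT (SD, n = 3 each). Log2 fold changes of the 5 genes ran from 1.80 for rcs-1 to 2.14 for sid-5, beside 1.94 for zip-1, which the distance itself favours.

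Of the 5 transcripts listed for zip-1, those ending in a.2 and b.2 were called higher. The annotation gives them the same coding sequence lengths as a.1 and b.1, of 480 and 463 residues. Y75B8A.35b.2 was at 41.5, 40.5 and 37.0 CPM in pals-25(icb98) and at 7.16, 10.96 and 6.74 CPM in WT, a rise of 2.27 on the log2 scale (SE 0.21, edgeR adjusted p = 0.00716). Y75B8A.35a.2 was at 12.82, 11.1 and 12.3 CPM in pals-25(icb98) and at 2.17, 3.07 and 2.70 CPM in WT, a rise of 2.19 (SE 0.18, edgeR adjusted p = 0.00417). In both transcripts the groups were well apart, and these 2 were the only member transcripts of 24 tested to rise by over 2 on the log2 scale.

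The remaining zip-1 transcripts did not separate the groups. Y75B8A.35a.1 (log2 difference 1.04, SE 0.55, edgeR adjusted p = 0.330) and Y75B8A.35b.1 (0.92, SE 0.68, edgeR adjusted p = 0.481) overlapped between groups. Y75B8A.35c was too low to test, with 34.3 estimated counts in WT replicate 1 and under 1 in every other library. By encoded isoform, b held 73.6 ± 2.23% of the zip-1 TPM in pals-25(icb98) and 67.8 ± 7.92% in WT (SD, n = 3 each), and the groups overlapped. The calls of a.2 (edgeR adjusted p = 0.0646) and b.2 (0.0530) were lost with a replicate block, and that of b.2 also without pals-25(icb98) replicate 1 (0.0541).

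**Figure D2:**
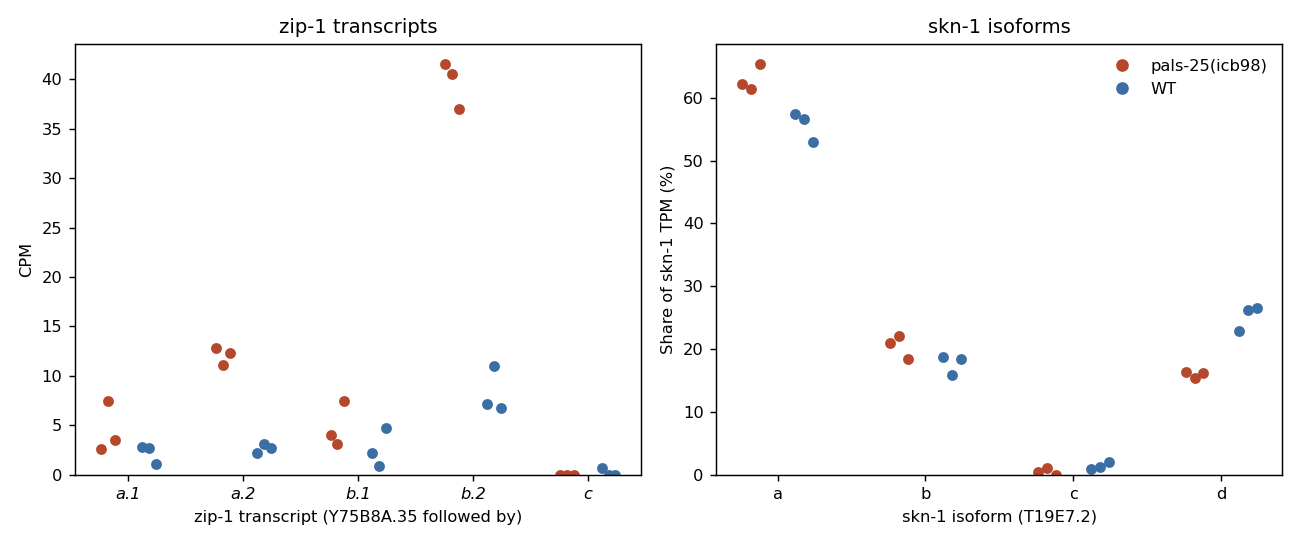
Left, CPM of the 5 zip-1 transcripts in the 3 pals-25(icb98) libraries (red) and the 3 WT libraries (blue), where b.2 is at 37.0 to 41.5 CPM in the mutant and 6.74 to 10.96 CPM in WT. Right, share of the skn-1 TPM held by isoforms a to d in each library, where isoform d takes 15.4 to 16.4% in pals-25(icb98) and 22.9 to 26.6% in WT.

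cebp-1 (D1005.3, X 1452695 to 1453868, minus strand) encodes a C/EBP protein of the bZIP family that is known for axon regeneration below the kinase DLK-1 and for a role in defence against Pseudomonas. It was measured at 45.5, 42.2 and 45.5 CPM in pals-25(icb98), against 16.3, 15.3 and 16.6 CPM in WT. Every mutant library was above every WT library. The rise was 2.76-fold or 1.47 on the log2 scale (SE 0.06, 95% interval 1.31 to 1.62, edgeR adjusted p = 8.86e-05). cebp-1 ranked 63 by p-value, and its change was larger than that of 93.9% of tested genes. Its interval lay below that of zip-1, though the difference between the 2 genes was not tested.

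Most of the cebp-1 signal, 93.0 ± 1.78% of its TPM in pals-25(icb98) and 94.8 ± 2.98% in WT (SD, n = 3 each), was assigned to D1005.3.2. This transcript rose by 1.44 (SE 0.07, edgeR adjusted p = 7.29e-04) and D1005.3.1 showed a log2 difference of 1.90 (SE 0.54) that was not called (edgeR adjusted p = 0.105).

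Among 8 other genes of the CEBP-1 pathway, 1 was higher and 0 lower, and the median log2 fold change was 0.09. At an unadjusted p under 0.05 in edgeR, 2 were higher and 0 lower, and DESeq2 and limma-voom called 0 lower. The gene that rose was nipi-3, which encodes a Tribbles pseudokinase that negatively regulates cebp-1. nipi-3 was at 54.9, 50.9 and 53.0 CPM in pals-25(icb98) and at 35.3, 38.7 and 35.5 CPM in WT, a rise of 0.54 (SE 0.06, edgeR adjusted p = 0.00366) with no overlap. The kinases dlk-1 (0.08, edgeR adjusted p = 0.599), mkk-4 (0.11, 0.658) and pmk-3 (-0.11, 0.396), the core of the axon regeneration cascade, were not called. Without WT replicate 2, 3 genes of the pathway were higher.

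zip-2 (K02F3.4, III 832982 to 835814, plus strand) encodes a bZIP factor needed for defence against Pseudomonas. It was measured at 324, 285 and 309 CPM in pals-25(icb98), against 194, 226 and 207 CPM in WT. The groups did not overlap, although pals-25(icb98) replicate 2 and WT replicate 2 were the closest libraries of the 2 groups. zip-2 rose by 0.55 on the log2 scale (SE 0.08, 95% interval 0.36 to 0.73, edgeR adjusted p = 0.00702), or 1.46-fold. Between 99.5 and 99.9% of its TPM was assigned to K02F3.4.2 in each library. At transcript level K02F3.4.2 rose by the same 0.55 (edgeR adjusted p = 0.0232), a call lost with a replicate block (0.126) and without any 1 library other than WT replicate 2 (0.0632 to 0.110), where the gene-level call held throughout.

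cebp-2 (C48E7.11, I 6253082 to 6253584, plus strand) encodes the C/EBP partner of ZIP-2. It was measured at 9.28, 10.2 and 9.41 CPM in pals-25(icb98), against 11.1, 12.3 and 10.8 CPM in WT. All mutant values were below all WT values, but the log2 difference of -0.24 (SE 0.10, 95% interval -0.49 to 0.0039) was not called (edgeR adjusted p = 0.144). Whether the change of zip-2 differed from that of its partner was not tested.

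irg-1 and irg-2 are infection response genes that need ZIP-2 and CEBP-2 during bacterial infection. irg-1 was at 8.23, 9.66 and 11.9 CPM in pals-25(icb98) and at 4.41, 4.07 and 5.04 CPM in WT, a rise of 1.14 (SE 0.17, edgeR adjusted p = 0.00988). irg-2 was at 1.49, 2.29 and 2.33 CPM in pals-25(icb98) and at 0.801, 0.436 and 2.14 CPM in WT. The irg-1 groups did not overlap, whereas those of irg-2 did, and the irg-2 difference of 0.86 (SE 0.57) was not called (edgeR adjusted p = 0.327).

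zip-10 (T27F2.4, V 11650079 to 11650762, minus strand), which encodes a bZIP factor that promotes death after cold shock, was at 4.71, 3.88 and 5.11 CPM in pals-25(icb98) and at 3.60, 4.26 and 3.42 CPM in WT. The groups overlapped, and the log2 difference of 0.28 (SE 0.16, 95% interval -0.12 to 0.68) was not called (edgeR adjusted p = 0.275). Its repressor isy-1 (-0.05, edgeR adjusted p = 0.565) and its target asp-17, a protease gene (0.28, edgeR adjusted p = 0.493), were not called. Neither was called in either direction by DESeq2 or limma-voom, nor at an unadjusted p under 0.05.

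**Figure D3:**
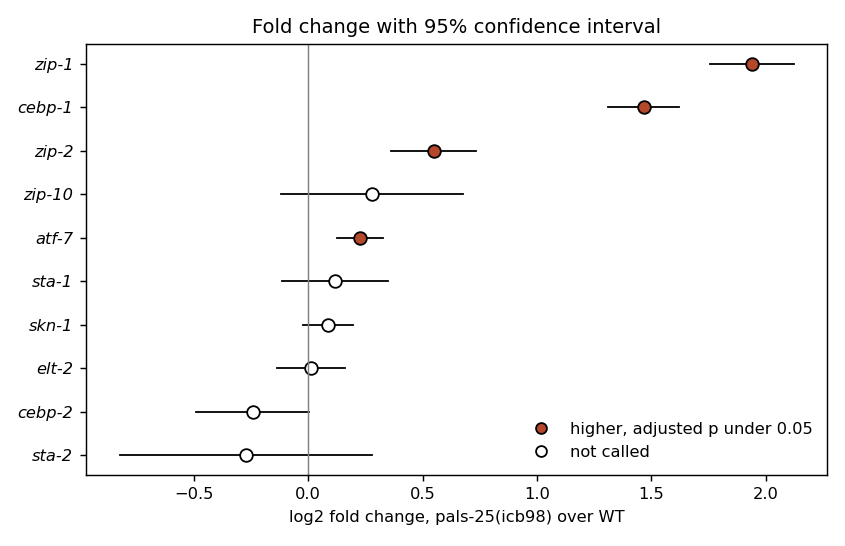
Log2 fold change of pals-25(icb98) over WT for each of the 10 genes, with its 95% confidence interval from the edgeR fit. Filled points are called at an adjusted p under 0.05, and the intervals of zip-1 (1.75 to 2.12) and cebp-1 (1.31 to 1.62) lie above those of all other members.

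atf-7 (C07G2.2, III 4491627 to 4499045, minus strand) encodes a bZIP factor related to mammalian ATF2 that PMK-1 phosphorylates and so turns from a repressor into an activator. It was at 135, 132 and 132 CPM in pals-25(icb98), against 112, 112 and 117 CPM in WT. Replicates were tight and the groups did not overlap. The rise was small, 1.17-fold or 0.23 on the log2 scale (SE 0.04, 95% interval 0.13 to 0.33, edgeR adjusted p = 0.0158). The call was lost with a replicate block (0.0552) and without pals-25(icb98) replicate 1 (0.0741), 2 (0.0580) or 3 (0.0646) or WT replicate 1 (0.0527), with the log2 fold change between 0.21 and 0.25. Of its 5 transcripts 4 were tested and 0 called in edgeR. The widest differences were those of C07G2.2b (0.33, edgeR adjusted p = 0.245) and C07G2.2d (-0.57, SE 0.68, edgeR adjusted p = 0.664), and isoform d held 0.574% of the atf-7 TPM in pals-25(icb98) and 1.02% in WT on average.

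Of 8 genes of the p38 cascade above ATF-7 and SKN-1, 4 were higher and 0 lower, at a median of 0.20. tpa-1, a protein kinase C gene, was at 47.5, 43.9 and 45.1 CPM in pals-25(icb98) and at 27.4, 31.8 and 26.0 CPM in WT, a rise of 0.68 (SE 0.09, edgeR adjusted p = 0.00572). dkf-2, which encodes a protein kinase D activated by TPA-1, rose by 0.38 (SE 0.08, edgeR adjusted p = 0.0211). The adaptor gene tir-1 rose by 0.44 (SE 0.11, edgeR adjusted p = 0.0404), and vhp-1, a phosphatase gene that opposes the p38 and JNK kinases, by 0.32 (SE 0.08, edgeR adjusted p = 0.0390). The kinases between the adaptor and ATF-7, nsy-1 (-0.04, edgeR adjusted p = 0.710), sek-1 (-0.03, 0.733) and pmk-1 (-0.11, 0.515), were not called, nor was pmk-2 (0.08, 0.779).

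The call of tpa-1 held under every alternative, and that of tir-1 was lost with a replicate block (0.0621) as well as without single libraries. Only 1 gene of the cascade was higher without any 1 of the pals-25(icb98) libraries, and 2 were without WT replicate 1 or WT replicate 3. No gene of the cascade was lower at an unadjusted p under 0.05, in DESeq2 or in limma-voom.

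Of 8 genes known to need PMK-1 or ATF-7, 1 was higher and 1 lower, at a median of -0.40. At an unadjusted p under 0.05 in edgeR, 1 was higher and 5 lower, and DESeq2 called 3 lower. catp-3 (C09H5.2), which encodes an ion-transporting ATPase, rose to 72.9, 72.5 and 93.0 CPM in pals-25(icb98), against 38.7, 28.3 and 32.8 CPM in WT, by 1.26 (SE 0.15, edgeR adjusted p = 0.00517). irg-4 fell to 31.05, 36.7 and 28.4 CPM in pals-25(icb98), against 55.9, 78.4 and 52.2 CPM in WT, by 0.96 on the log2 scale (SE 0.18, edgeR adjusted p = 0.0190). Neither gene had overlapping groups. The call of irg-4 was lost without pals-25(icb98) replicate 1 (0.0906) or 3 (0.0825), and leaving out WT replicate 2 gave 4 lower genes in the list. The lysozyme gene lys-2 (-0.42, edgeR adjusted p = 0.0967) and irg-5 (0.29, edgeR adjusted p = 0.351) were not called.

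skn-1 (T19E7.2, IV 5651039 to 5660384, minus strand) encodes the Nrf-related factor that induces detoxification genes under oxidative stress. Its gene total was 109, 109 and 111 CPM in pals-25(icb98), against 99.2, 103 and 107 CPM in WT. The groups did not overlap, but pals-25(icb98) replicate 1 and WT replicate 3 were close. The log2 difference of 0.09 (SE 0.05, 95% interval -0.02 to 0.20) was not called (edgeR adjusted p = 0.228).

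Within this near-level total the log2 differences of the skn-1 transcripts were not all of 1 sign, and differences between transcripts were not tested. The full-length transcript T19E7.2a, which encodes 623 residues, was at 76.0, 76.5 and 80.8 CPM in pals-25(icb98), against 64.1, 64.7 and 64.7 CPM in WT, a rise of 0.28 (SE 0.05, edgeR adjusted p = 0.0423). The annotation gives isoform d 223 residues, the fewest of the skn-1 isoforms. Its T19E7.2d.1 has 672 bases there, against 2422 in the deposited data. T19E7.2d.1 was at 14.1, 9.48 and 13.6 CPM in pals-25(icb98), against 19.1, 23.5 and 22.4 CPM in WT. Neither T19E7.2a nor T19E7.2d.1 had overlapping groups, but the d.1 difference of -0.80 (SE 0.18) was called only by DESeq2 (adjusted p = 0.00219) and not by edgeR (0.0689). The other tested transcript of isoform d, T19E7.2d.2, was not called, with a log2 difference of 0.20 (edgeR adjusted p = 0.814). T19E7.2b, which encodes 310 residues, was not called (0.31, edgeR adjusted p = 0.238).

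As a share of the skn-1 TPM, isoform a held 62.2, 61.5 and 65.3% in pals-25(icb98) and 57.4, 56.6 and 52.9% in WT. Isoform d held 16.4, 15.4 and 16.2% in pals-25(icb98) and 22.9, 26.3 and 26.6% in WT. The groups did not overlap for either isoform, while those of b (20.5 ± 1.88% in pals-25(icb98), 17.7 ± 1.61% in WT, SD, n = 3 each) did. The shares of every isoform of zip-1, atf-7 and sta-1 overlapped as well. How often isoform shares do not overlap over all genes was not measured. With 3 libraries against 3 an exact permutation test cannot give a two-sided p under 0.1, so the shares are a description. The isoforms share most of their sequence and their counts are divided by a model, and the T19E7.2a call was lost with a replicate block (edgeR adjusted p = 0.146) and without any 1 library other than WT replicate 2 (0.121 to 0.160).

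Over all members, 5 of 24 tested transcripts were higher and 0 lower in edgeR, beside 6.12% called of 24607 transcripts tested. The groups did not overlap for 9 of these 24, beside 37.5% of all tested transcripts. The 5 were a.2 and b.2 of zip-1, K02F3.4.2 of zip-2, D1005.3.2 of cebp-1 and T19E7.2a of skn-1. Without single libraries the count was 2 (pals-25(icb98) replicate 1) or 3 (pals-25(icb98) replicates 2 and 3, WT replicates 1 and 3), and it was 1 with a replicate block. Another 5 of the 29 listed member transcripts were too low to test.

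Of 6 genes that control SKN-1 protein, 0 were called by edgeR, DESeq2 or limma-voom, at a median of 0.09. They included wdr-23, the adaptor that directs SKN-1 to degradation (0.11, edgeR adjusted p = 0.337), and gsk-3, a kinase that inhibits it (0.04, edgeR adjusted p = 0.698). At an unadjusted p under 0.05, 0 were higher and 1, the deglycosylase gene png-1 (-0.19, edgeR adjusted p = 0.0797), was lower, and 1 was lower without WT replicate 2.

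Of 7 known SKN-1 targets, 5 were lower, 1 was higher and 1 was not called, at a median log2 fold change of -0.36. gst-4, a glutathione S-transferase gene whose promoter is a common SKN-1 reporter, fell to 11.1, 14.6 and 13.7 CPM in pals-25(icb98), against 28.5, 34.6 and 27.8 CPM in WT, by 1.20 on the log2 scale (SE 0.14, edgeR adjusted p = 0.00391). gst-5 fell by 0.82 (SE 0.11, edgeR adjusted p = 0.00658) and gst-10 fell by 0.36 (SE 0.05, edgeR adjusted p = 0.00936). gcs-1, which encodes the enzyme of the rate-limiting step of glutathione synthesis, fell to 94.1, 93.5 and 92.6 CPM in pals-25(icb98), against 104, 116 and 110 CPM in WT, by 0.23 (SE 0.05, edgeR adjusted p = 0.0292).

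Among these targets gst-30 moved the other way. It rose to 7.62, 6.90 and 7.60 CPM in pals-25(icb98), against 0.337, 0.557 and 0.394 CPM in WT, by 4.10 (SE 0.21, edgeR adjusted p = 1.60e-04). sdz-8 fell to 3.71, 3.92 and 2.94 CPM in pals-25(icb98), against 6.49, 18.9 and 9.15 CPM in WT, by 1.71 (SE 0.42, edgeR adjusted p = 0.0387), with WT replicate 2 the highest by far, and by 1.15 without that library. gst-7 was not called (-0.19, edgeR adjusted p = 0.196).

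The falls of gst-4, gst-5 and gst-10 and the rise of gst-30 held under every alternative. Those of gcs-1 and sdz-8 were lost without any 1 of the pals-25(icb98) libraries (edgeR adjusted p 0.1005 to 0.137) and without WT replicate 3 (0.0891 and 0.0750), and the list then had 3 lower genes. Both were also lost with a replicate block (0.0690 and 0.0546), which likewise left 3 lower genes, and that of sdz-8 in limma-voom (0.0664).

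sta-1 (Y51H4A.17, IV 16664320 to 16671472, plus strand) encodes a STAT factor that represses antiviral genes in animals without infection. It was at 14.6, 14.5 and 13.1 CPM in pals-25(icb98), against 13.03, 13.7 and 12.2 CPM in WT. The groups overlapped, and the log2 difference of 0.12 (SE 0.10, 95% interval -0.12 to 0.35) was not called (edgeR adjusted p = 0.415). Its 2 tested transcripts, Y51H4A.17a (-0.16, edgeR adjusted p = 0.836) and Y51H4A.17c (0.29, edgeR adjusted p = 0.402), were not called either. sid-3, a tyrosine kinase gene placed above STA-1, was at 66.7 CPM in pals-25(icb98) and 54.6 CPM in WT on average and was not called in edgeR (log2 difference 0.29, adjusted p = 0.0836), although it was by DESeq2 and without WT replicate 2.

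sta-2 (F58E6.1, V 9741206 to 9744331, plus strand) encodes the STAT-like factor that induces antimicrobial peptide genes in the epidermis after fungal infection or wounding. It was at 5.29, 4.91 and 5.95 CPM in pals-25(icb98), against 4.996, 8.65 and 5.88 CPM in WT. WT replicate 2 stood above all other libraries. The log2 difference of -0.27 (SE 0.23, 95% interval -0.82 to 0.28) was not called (edgeR adjusted p = 0.422) and was -0.01 without that library. Of its partner gene snf-12 and 9 peptide genes, cnc-1 was at 0 in every library, and 0 of the 9 tested were called in edgeR or limma-voom, with 1 higher in DESeq2.

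The peptide genes had no common direction. nlp-29, the usual reporter of this response, averaged 19.8 CPM in pals-25(icb98) and 15.5 CPM in WT (log2 difference 0.35, edgeR adjusted p = 0.193). nlp-31 averaged 13.5 CPM in pals-25(icb98) and 20.4 CPM in WT (-0.59, edgeR adjusted p = 0.110). At an unadjusted p under 0.05, 1 gene was higher and 3 lower, and without WT replicate 2, 4 were called higher and 2 lower. The epidermal marker sum given above was lower in pals-25(icb98) and highest in WT replicate 2, where dpy-7 was at 303 CPM. Of the WT libraries, replicate 2 was highest for dpy-7, elt-3, nhr-23 and che-14 and lowest for rol-6 and lin-26. The part of these markers in the levels of the peptide genes and of sta-2 was not tested.

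elt-2 (C33D3.1, X 10481240 to 10483441, plus strand) was at 29.6, 31.3 and 30.6 CPM in pals-25(icb98), against 29.1, 29.7 and 32.0 CPM in WT. The highest library was WT replicate 3 and the lowest WT replicate 1, so the mutant values lay inside the WT range. The log2 difference was 0.01 (SE 0.06, edgeR adjusted p = 0.906), and its 95% interval ran from -0.14 to 0.16. The sum of intestinal markers, most of which was asp-1, was higher in pals-25(icb98), as given above, but 5 of those 7 markers were not called.

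Of 9 known ELT-2 targets, 2 were higher and 1 lower, at a median of 0.14. The targets ges-1, ifb-2, act-5, asp-1 and elt-7 are also among the intestinal markers. The 2 higher targets are therefore the same genes as the 2 higher markers. ifb-2, an intermediate filament gene of the intestinal brush border, rose to 632, 571 and 616 CPM in pals-25(icb98), against 383, 439 and 380 CPM in WT, by 0.60 (SE 0.07, edgeR adjusted p = 0.00488). The protease gene asp-1 rose by 0.38 (SE 0.07, edgeR adjusted p = 0.0158), and spl-1, a sphingosine phosphate lyase gene, fell by 0.21 (SE 0.05, edgeR adjusted p = 0.0346). The asp-1 call was lost with a replicate block (0.0627) and without pals-25(icb98) replicate 3 (0.0546) or WT replicate 3 (0.0548). That of spl-1 was lost with a replicate block (0.0642) and without pals-25(icb98) replicates 1 (0.133), 2 (0.0693) or 3 (0.133) or WT replicate 3 (0.108), and 4 genes of the list were higher and 3 lower without WT replicate 2. The intestinal esterase and actin genes ges-1 (0.14, edgeR adjusted p = 0.186) and act-5 (0.15, edgeR adjusted p = 0.400), were not called.

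Per transcript length, in TPM computed from the estimated counts and effective lengths, zip-2 was the highest of the 10 genes in both groups, at 220 ± 10.5 TPM in pals-25(icb98) and 152 ± 13.7 TPM in WT (SD, n = 3 each). sta-2 was the lowest, at 2.83 ± 0.263 TPM in pals-25(icb98) and 3.46 ± 1.06 TPM in WT. In pals-25(icb98) the order below zip-2 was atf-7 (57.3 TPM), skn-1 (42.5), cebp-1 (41.8), zip-1 (32.9), cebp-2 (28.7), elt-2 (18.9), zip-10 (8.21) and sta-1 (5.65). In WT it was atf-7 (49.4 TPM), skn-1 (40.2), cebp-2 (33.8), elt-2 (18.9), cebp-1 (15.3), zip-1 (8.73), zip-10 (6.87) and sta-1 (5.25).

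The order changed at cebp-1 and zip-1, which stood above cebp-2 and elt-2 in pals-25(icb98) and below both in WT. Between neighbours in the order, the ranges over 3 libraries overlapped for skn-1 (41.3 to 43.5 TPM) and cebp-1 (40.5 to 42.6 TPM) in pals-25(icb98), and for no other neighbours in either group.

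**Figure D4:**
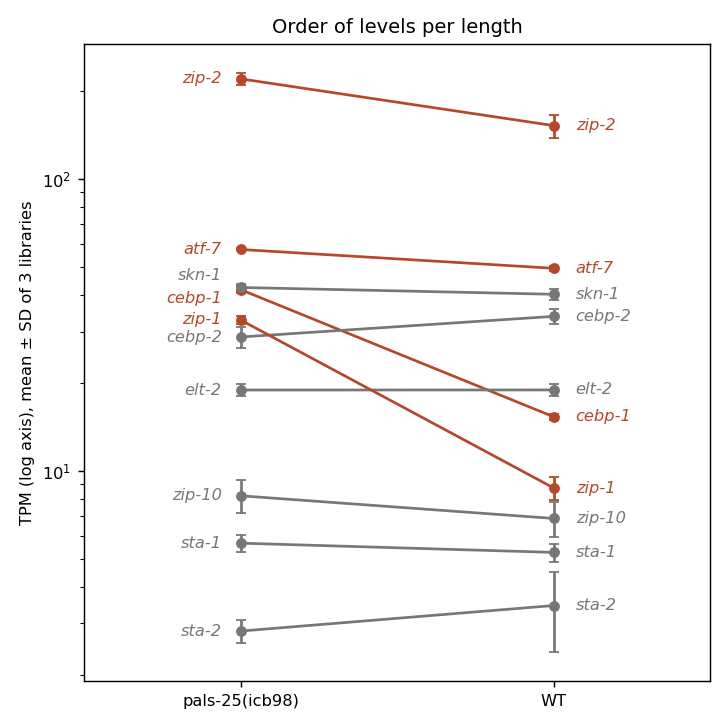
Mean TPM ± SD of 3 libraries for each of the 10 genes in pals-25(icb98) (left) and WT (right), on a log axis, with red lines for genes called higher. zip-1 (32.9 TPM in pals-25(icb98), 8.73 TPM in WT) and cebp-1 (41.8 TPM in pals-25(icb98), 15.3 TPM in WT) cross cebp-2 and elt-2, and the remaining genes keep their order.

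Of 23 other bZIP genes listed, 22 were found, since atf-5 could not be matched by name. Of these, 19 were tested, with 5 higher, 1 lower and a median log2 fold change of -0.02. At an unadjusted p under 0.05 in edgeR, 6 were higher and 4 lower. The widest log2 differences of the list, those of atf-8 (-1.73, edgeR adjusted p = 0.108) and atf-2 (-1.27, edgeR adjusted p = 0.0517), were not called. xbp-1, the factor of the unfolded protein response of the endoplasmic reticulum, was at 356, 341 and 340 CPM in pals-25(icb98), against 239, 201 and 232 CPM in WT, a rise of 0.63 (SE 0.07, edgeR adjusted p = 0.00411). atfs-1, the factor of the mitochondrial unfolded protein response, rose to 54.6 CPM in pals-25(icb98), against 41.4 CPM in WT, by 0.40 (SE 0.06, edgeR adjusted p = 0.00936). fos-1 rose by 0.43 (SE 0.07, edgeR adjusted p = 0.0123) and crh-1, the CREB gene, by 0.44 (SE 0.08, edgeR adjusted p = 0.0162). The rise of zip-1 was larger than those of all called genes of this list.

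zip-12, named after its value was seen, rose by 0.37 (SE 0.09, edgeR adjusted p = 0.0390). atf-4, the factor of the integrated stress response, fell by 0.34 (SE 0.09, edgeR adjusted p = 0.0492), a call lost in 10 of 12 alternatives, among them those without pals-25(icb98) replicates 1 (0.172), 2 (0.124) and 3 (0.121) and WT replicates 1 (0.0739) and 3 (0.0774). The calls of xbp-1 and atfs-1 held in all 12. That of fos-1 was lost without pals-25(icb98) replicate 1 (0.0664) or 3 (0.0610) or WT replicate 3 (0.0524), and that of crh-1 without pals-25(icb98) replicate 1 (0.0518) or WT replicate 3 (0.0609). That of zip-12 was lost with length-scaled counts (0.0555) and without any 1 library other than WT replicate 2 (0.0928 to 0.135). Without pals-25(icb98) replicate 1 or WT replicate 3 the list had 2 higher genes, and without pals-25(icb98) replicate 3 it had 3, whereas 3 of its genes were lower without WT replicate 2.

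Of 10 other GATA factor genes 6 were tested, and 0 were called by edgeR, DESeq2 or limma-voom, or at an unadjusted p under 0.05, at a median of -0.26. They included elt-7, the intestinal partner of ELT-2 (0.10, edgeR adjusted p = 0.694), and elt-3 of the epidermis (-0.22, edgeR adjusted p = 0.548).

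Of 10 other immune and stress factors, 3 were higher and 0 lower in edgeR, DESeq2 and limma-voom, with 0 lower even at an unadjusted p under 0.05. pqm-1, a zinc finger factor gene active in the intestine, rose to 30.4, 28.2 and 27.9 CPM in pals-25(icb98), against 17.5, 15.6 and 15.5 CPM in WT, by 0.83 (SE 0.08, edgeR adjusted p = 0.00201). dve-1, a homeobox factor gene of the mitochondrial unfolded protein response, rose by 0.43 (SE 0.07, edgeR adjusted p = 0.0108). nhr-8, a nuclear receptor gene of xenobiotic defence, rose by 0.57 (SE 0.14, edgeR adjusted p = 0.0379), a call lost with a replicate block (0.0636) and without pals-25(icb98) replicates 1 (0.0994), 2 (0.117) or 3 (0.126) or WT replicate 1 (0.0883).

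**Figure D5:**
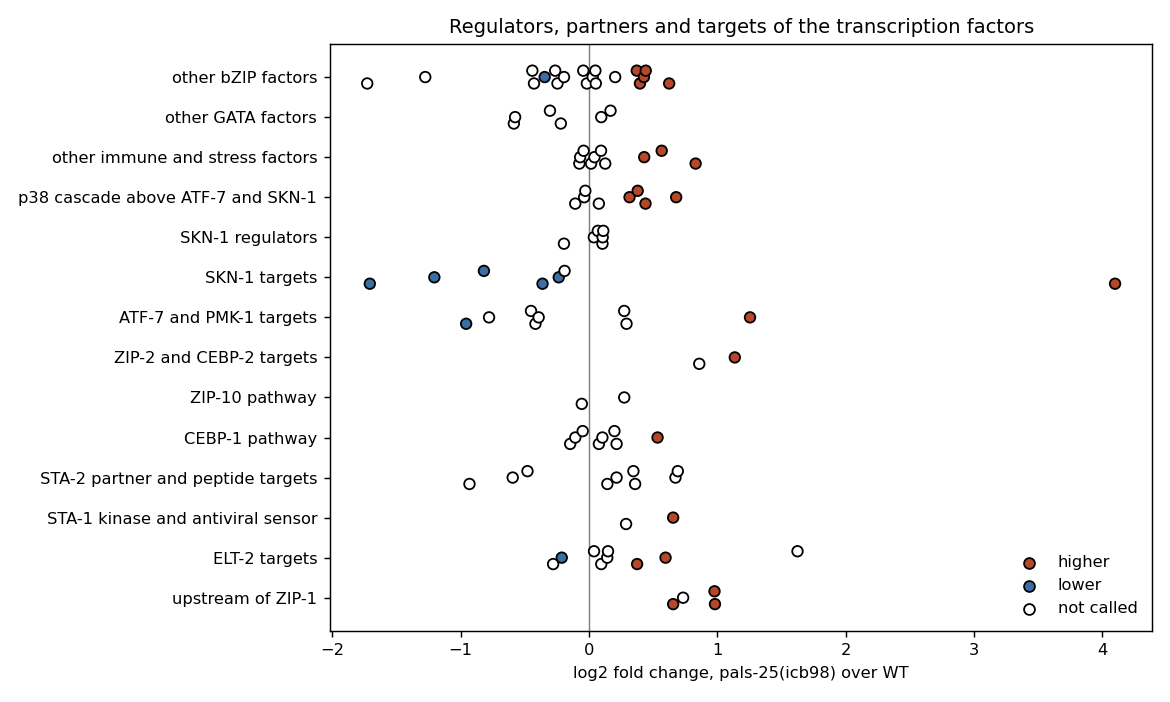
Log2 fold change of pals-25(icb98) over WT for each tested gene of the 14 lists of related factors, regulators and targets, with 1 row per list, filled red where higher, filled blue where lower and open where not called by edgeR. Of the SKN-1 targets, 5 of 7 are lower and gst-30 alone stands at 4.10, whereas the SKN-1 regulators lie between -0.19 and 0.11 with 0 called.

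Several members overlap another protein-coding gene, and whether reads were counted by strand is not given in the sources used here. zip-1 shares 62 of its 2126 exonic bases with pph-4.1 on the opposite strand, which fell by 0.23 (edgeR adjusted p = 0.0376), while zip-1 rose. skn-1 shares 41 of 2960 with csn-5 on the opposite strand, which rose by 0.24 (edgeR adjusted p = 0.0170), as T19E7.2a of skn-1 did. zip-2 shares 64 of 1455 with dos-3 and zip-10 12 of 633 with skp-1, both on the opposite strand. atf-7 shares 72 of 2714 with C07G2.5 on its own strand. cebp-1, cebp-2, sta-1, sta-2 and elt-2 share no exonic bases with a protein-coding gene. Overlaps with non-coding genes, such as linc-37 on the strand of zip-2, were not measured. The part of any overlap in these counts was not tested.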

How the data were processed

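Whole-animal RNA-seq of 3 pals-25(icb98) and 3 WT samples was analysed from the deposited tables. The authors assigned reads to the WS235 transcriptome with kallisto and deposited estimated counts for 35862 transcripts per library, with lengths and effective lengths, and compared the strains with sleuth. Their versions and the strand setting were not given in the sources used here. The submitters' labels call the replicates biological. Nothing says whether the cultures were separate, and p-values then measure only the spread between these libraries.

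Transcripts were summed to 22010 genes by sequence name, of which 21842 (99.2%) matched the Ensembl WBcel235 annotation that gave symbols and coordinates. Of matched transcripts, 30.1% had the same length in both, so isoforms are named as in the deposited tables. Totals of 40709626 to 47297002 set the counting precision. Counts were rounded, filtered with filterByExpr (minimum count 10), TMM-scaled and tested with the robust quasi-likelihood F-test of edgeR 4.0.16 in R 4.3.3 with the group alone in the model, after the unblocked design of the study. Genes and transcripts were fitted separately, over 16166 genes and 24607 transcripts, with Benjamini-Hochberg adjustment over all of them and a threshold of 0.05. Standard errors were derived from the F statistic. TPM were computed from estimated counts and effective lengths. Sleuth was not run.

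Alternatives were DESeq2 1.42.0, limma-voom (limma 3.58.1), RLE scaling, no filter, length-scaled counts, a replicate block and leaving out each library. The fits were tested on simulated data. Members and lists were chosen with earlier results of these data known. The text names the 10 members, each called gene of a list of up to 12 genes, up to 4 per direction in longer lists, at most 4 IPR genes and the 5 genes most like zip-1. Uncalled list genes were named as familiar examples, or for the size or direction of their difference, after their values were seen.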

Additional observations from a re-analysis of the deposited data

How the results depend on the processing

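The calls of zip-1, cebp-1 and zip-2 held under all 12 alternatives, with log2 fold changes of 1.90 to 2.01, 1.43 to 1.502 and 0.50 to 0.61 and edgeR, DESeq2 or limma-voom adjusted p of at most 0.00199, 0.00261 and 0.0416. The 6 members that were not called stayed so in all 12, and the number of members called higher was 3 or 4 and of members called lower 0. Over all genes, leaving out 1 library gave 682 to 3165 higher and 330 to 2972 lower genes, against 1584 and 1729 with all libraries, and 3165 and 2972 were those without WT replicate 2. DESeq2 gave 2294 higher and 2487 lower, limma-voom 1661 and 1605, RLE scaling 1612 and 1546, no filter 1479 and 1533 and length-scaled counts 1573 and 1653. The share of higher among called genes was 47.8%, and 67.4% without pals-25(icb98) replicate 1, 65.5% without replicate 3 and 61.3% without WT replicate 3. The cause of these shifts was not tested.

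Deviations from the group means correlated at 0.08, 0.25 and 0.13 between same-numbered libraries, for replicates 1, 2 and 3. Libraries of different numbers were not compared, so these values cannot decide whether the numbers pair the samples. The main model had no block, after the design of the study. With the replicate block, 1184 genes were higher and 1010 lower, 3 members were higher, atf-7 being lost, and 1 member transcript, D1005.3.2 of cebp-1, was called.

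All 10 members passed the filter on low counts, whereas 5 member transcripts were too low to test. A role of depth in the members that were not called was not tested. No called result changed direction.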
